A study of Mus musculus with 4 samples.

Results

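The genes of the mitochondrial carrier family SLC25 were followed in mouse DC2.4 cells, an immortalised dendritic cell line, after 24 h with ginsenoside Rb1 at 10 uM or with vehicle. The compound, a saponin from ginseng root with a steroid-like core and sugar chains, is called Rb1 here. Members were the protein-coding rows of the deposited count table whose symbol begins with Slc25a and a number, which gave 47 of 54532 genes, and they were arranged by the substrate they are known to carry. RNA was sequenced in 2 libraries with Rb1 and 2 libraries with vehicle, which the labels call biological replicates. Cells of both groups grew in the same serum-containing RPMI-1640 medium with antibiotics, and the labels name no genetic change in either group.

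Mitochondrial carriers are small proteins of the inner mitochondrial membrane built from a threefold-repeated unit of paired membrane helices. Each moves a particular metabolite, nucleotide, coenzyme or ion between the cytosol and the matrix, usually by exchange. They supply ATP to the cytosol, link glycolysis and the citric acid cycle through metabolite shuttles, and bring iron, coenzymes and amino acids into the matrix.

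Library totals lay between 17829784 and 18641021 counts. Levels are given as CPM, a gene's count over the TMM-scaled library total, or, where genes are compared with each other, as the deposited FPKM, which also divide by gene length. Changes were tested with edgeR's quasi-likelihood model on 13518 genes, and a gene is called when its adjusted p is under 0.05. How the cultures of a group were kept apart is not in the labels, and the p-values cover only the spread between libraries, which may be technical. In RNA from a whole culture, fewer cells with a transcript and less transcript per cell cannot be told apart. Of 10 markers of dendritic and myeloid cells, 2 were near 0: Flt3 had 2 and 0 counts with Rb1 and 0 in both vehicle libraries, and H2-Ab1 had 4 and 5 counts with Rb1, against 7 and 15 with vehicle. The 10 together summed to 1295 and 1276 CPM with Rb1, against 2215 and 2269 CPM with vehicle. Of the 8 tested, 6 were lower and 2 higher, where 36.3% of all genes tested were called lower and 35.7% higher. The dendritic cell integrin gene Itgax had 71 and 60 counts with Rb1, against 461 and 509 with vehicle. The 2 that were higher were the dendritic cell transcription factor gene Zbtb46, with 127 and 109 counts with Rb1, against 37 and 31 with vehicle, and the leukocyte gene Ptprc, with 4742 and 4664 counts with Rb1, against 1791 and 1905 with vehicle. Of 7 markers of other cell types, Epcam, Krt8 and Cd3e had no count in any library. The 7 together summed to 0.649 and 0.515 CPM with Rb1, against 3.17 and 4.34 CPM with vehicle. Most of these counts were from Pecam1, with 10 and 9 counts with Rb1, against 44 and 65 with vehicle. It was the only 1 of the 7 tested and was called lower (log2 fold change -2.74, adjusted p = 4.3e-05). The part of either marker list in the changes below was not tested.

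Of the 47 carrier genes, 38 had enough counts to be tested. With Rb1, 17 of these were higher and 10 lower, and 11 were not called. Over all genes tested 35.7% were called higher and 36.3% lower, 72.0% in either direction, and 74.8% of protein-coding genes were called. The share of carriers called, 27 of 38, thus lay near the background. Their median log2 fold change was 0.15, against -0.01 over all genes tested. The changes ran from -2.18 for Slc25a47 to 1.74 for Slc25a42, and those not called lay between -0.19 and 0.23. The groups did not overlap in 33 of the 38 genes, where they did not in 86.3% of all genes tested and 88.1% of protein-coding ones. A change of at least 2-fold was called in 4 carriers that were higher, Slc25a42, Slc25a23, Slc25a12 and Slc25a40, and in 2 that were lower, Slc25a47 and Slc25a20. Among all genes tested 14.2% were higher and 16.2% lower by that rule. The summed level of the 47 genes was 3655 ± 26.3 CPM with Rb1 and 3430 ± 177 CPM with vehicle (SD, n = 2 each), a ratio of 1.07 that had no test. As summed FPKM it was 1207 and 1222 with Rb1, against 1273 and 1140 with vehicle. The groups overlapped on that scale, with a ratio of 1.01.

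**Figure D1:**
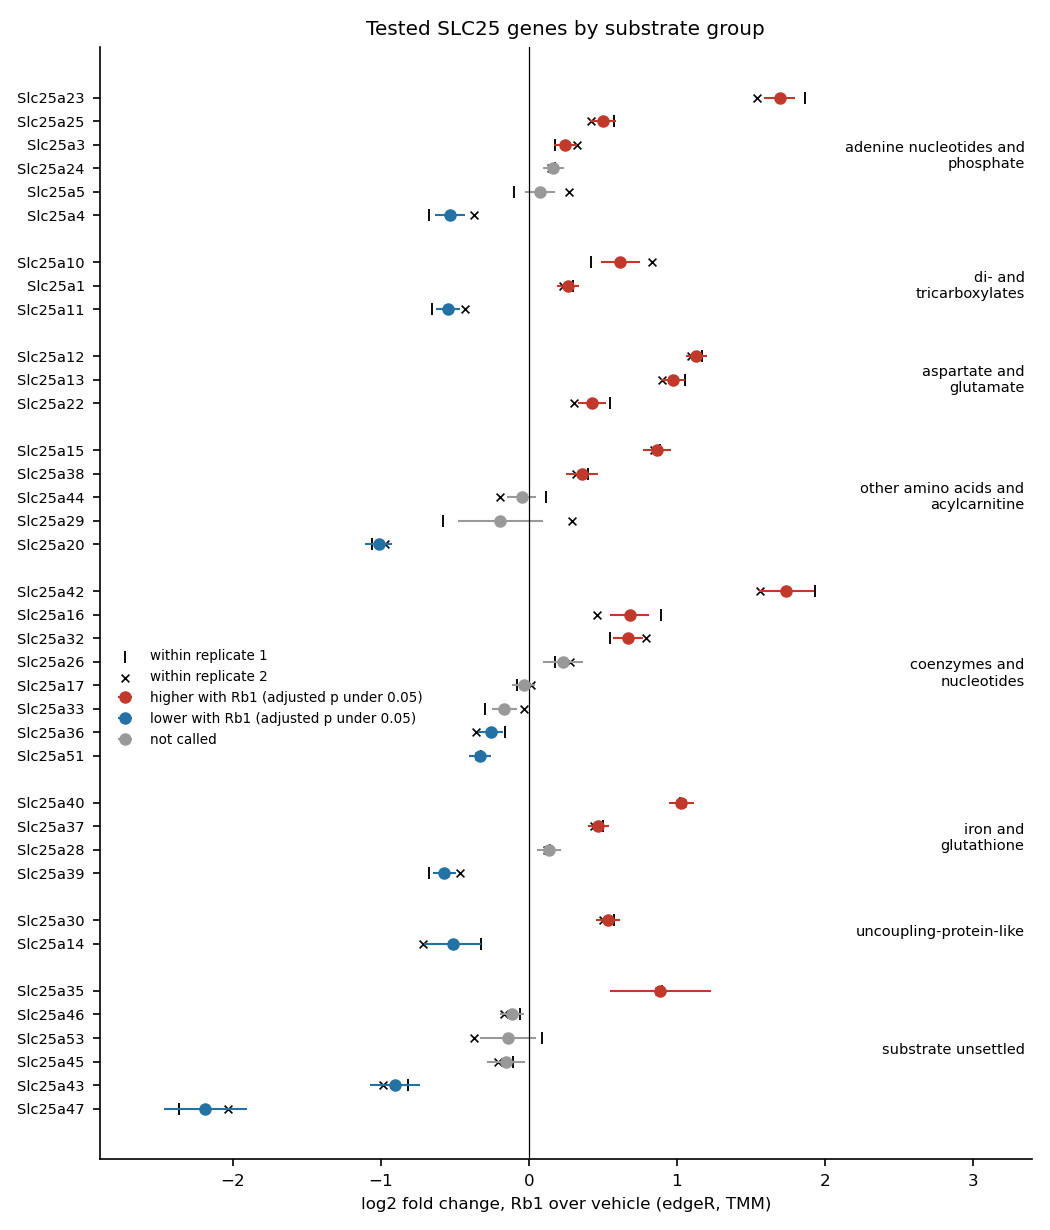
Log2 fold change (Rb1 over vehicle) of the tested SLC25 genes reported here, by substrate group; circles are edgeR estimates with their standard errors, and black marks are the changes within replicate 1 and replicate 2. Slc25a42 and Slc25a23 lie farthest to the right and Slc25a47 farthest to the left, and most substrate groups hold genes on both sides of 0.

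The promoter windows of the 6 carriers that changed by at least 2-fold are shown because these genes had the widest changes of the family. The windows run from 250 bases before to 50 after the RefSeq start (GRCm38.p6), and 36 of the 47 members matched one. Each is given 5′ to 3′ on the strand of the gene, at chr8:70212232-70212531, minus strand for Slc25a42, chr17:57059814-57060113, minus strand for Slc25a23, chr2:71367706-71368005, minus strand for Slc25a12, chr5:8422588-8422887, plus strand for Slc25a40, chr9:108661886-108662185, plus strand for Slc25a20 and chr12:108850879-108851178, plus strand for Slc25a47. Capitals mark matches, on either strand, to CCAAT (the CCAAT box), GGGCGG (the GC box) or ACGTG (the core of hypoxia response elements).
Slc25a42: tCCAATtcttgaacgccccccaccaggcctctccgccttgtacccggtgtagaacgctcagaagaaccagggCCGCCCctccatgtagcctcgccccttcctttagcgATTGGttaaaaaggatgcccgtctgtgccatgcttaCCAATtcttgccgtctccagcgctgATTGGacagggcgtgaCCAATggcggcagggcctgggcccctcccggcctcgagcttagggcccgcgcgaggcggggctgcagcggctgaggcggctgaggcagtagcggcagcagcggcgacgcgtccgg
Slc25a23: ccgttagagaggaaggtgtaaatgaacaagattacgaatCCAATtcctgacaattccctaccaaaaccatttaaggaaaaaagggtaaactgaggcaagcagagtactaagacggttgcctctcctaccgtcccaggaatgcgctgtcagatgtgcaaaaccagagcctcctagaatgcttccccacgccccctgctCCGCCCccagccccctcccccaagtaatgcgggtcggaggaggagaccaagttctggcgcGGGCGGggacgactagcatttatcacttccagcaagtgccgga
Slc25a12: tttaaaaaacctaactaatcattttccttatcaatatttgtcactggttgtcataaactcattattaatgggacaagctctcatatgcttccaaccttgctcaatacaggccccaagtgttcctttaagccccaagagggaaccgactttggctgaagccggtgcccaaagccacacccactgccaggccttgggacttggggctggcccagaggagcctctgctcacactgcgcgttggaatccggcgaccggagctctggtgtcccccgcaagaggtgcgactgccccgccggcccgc
Slc25a40: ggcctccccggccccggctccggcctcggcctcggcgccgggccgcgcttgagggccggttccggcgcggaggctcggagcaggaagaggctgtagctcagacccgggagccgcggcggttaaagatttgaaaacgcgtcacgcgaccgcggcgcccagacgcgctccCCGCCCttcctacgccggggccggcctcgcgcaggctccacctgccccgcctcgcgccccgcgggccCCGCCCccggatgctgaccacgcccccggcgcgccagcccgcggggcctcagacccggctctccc
Slc25a20: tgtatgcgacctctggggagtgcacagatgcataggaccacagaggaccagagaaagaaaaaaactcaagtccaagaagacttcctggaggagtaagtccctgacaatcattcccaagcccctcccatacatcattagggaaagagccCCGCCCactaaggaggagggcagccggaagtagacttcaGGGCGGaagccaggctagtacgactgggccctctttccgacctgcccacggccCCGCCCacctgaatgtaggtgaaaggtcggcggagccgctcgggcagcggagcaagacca
Slc25a47: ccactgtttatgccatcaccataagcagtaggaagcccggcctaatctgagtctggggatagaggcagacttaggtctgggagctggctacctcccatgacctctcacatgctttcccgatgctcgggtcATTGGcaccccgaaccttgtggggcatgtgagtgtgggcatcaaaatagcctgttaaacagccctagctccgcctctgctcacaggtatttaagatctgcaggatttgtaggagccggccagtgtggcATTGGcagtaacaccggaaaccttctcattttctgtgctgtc

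The window of Slc25a42 held 5 matches to CCAAT, beginning at bases -249, -142, -106, -81 and -65 from the start. At least 5 CCAAT matches occurred in 0.497% of the windows of genes tested. That limit was taken from the Slc25a42 window, which held the most CCAAT matches of the 36 matched members, so the share is a description only. The same window also held 1 GC box. Slc25a23 held 1 CCAAT match and 2 GC boxes, Slc25a47 held 2 CCAAT matches and no GC box, and Slc25a12 held neither motif. Slc25a40 held 2 GC boxes and Slc25a20 held 3, both without CCAAT. The 6 windows held no ACGTG, so neither did they hold CACGTG, which contains it and is the only form of the E-box counted here. The window of Slc25a47 was the poorest in CpG, with 7 against 12 to 47 in the other 5. Its RefSeq start lies 15083 bases downstream of the start of the gene in the count table. Over the 36 matched members, 83.3% held a GC box, against 60.9% of 12286 windows of genes tested, 47.2% held CCAAT, against 38.3%, 27.8% held ACGTG, against 25.8%, 16.7% held CACGTG, against 10.1%, and 5.56% held the palindromic NRF1 site, against 10.1%. A GC box was in 12 of 14 windows of members called higher, in 7 of 8 called lower and in 8 of 8 not called. The member shares use 1 window per gene, that nearest the start in the count table, and 6 of these members were not tested. The genes tested enter with all their windows, so the shares are not drawn alike. These are matches of letters and describe the windows only.

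The scale and the length of a gene model both bore on these counts. With library totals as the scale instead of TMM, all genes had a median log2 fold change of 0.23 and 22 carriers were called higher and 6 lower, where 45.3% and 27.1% of all genes, 72.4% together, were called, so directions here are relative to the TMM scale. Longer gene models were on the whole higher with Rb1: the median length was 5636.5 bases for all genes called higher and 2855 bases for those called lower. The 17 carriers called higher had a median length of 5550 bases, and the 10 called lower 2870.5 bases. Across the 38 tested carriers, log2 fold change and log2 length had a Pearson correlation of 0.43 and a Spearman correlation of 0.48, given as a description of genes that share the same 4 libraries. With the length trend of each library removed, 18 carriers were called higher and 11 lower, where 33.7% and 36.4% of all genes, 70.1% together, were. Whether length takes part in any one change was not tested beyond that alternative. Its value is given below beside each called SLC25 gene reported here whose log2 fold change it moved by over 1.5 times. For related genes outside the family it is not given gene by gene.

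**Figure D2:**
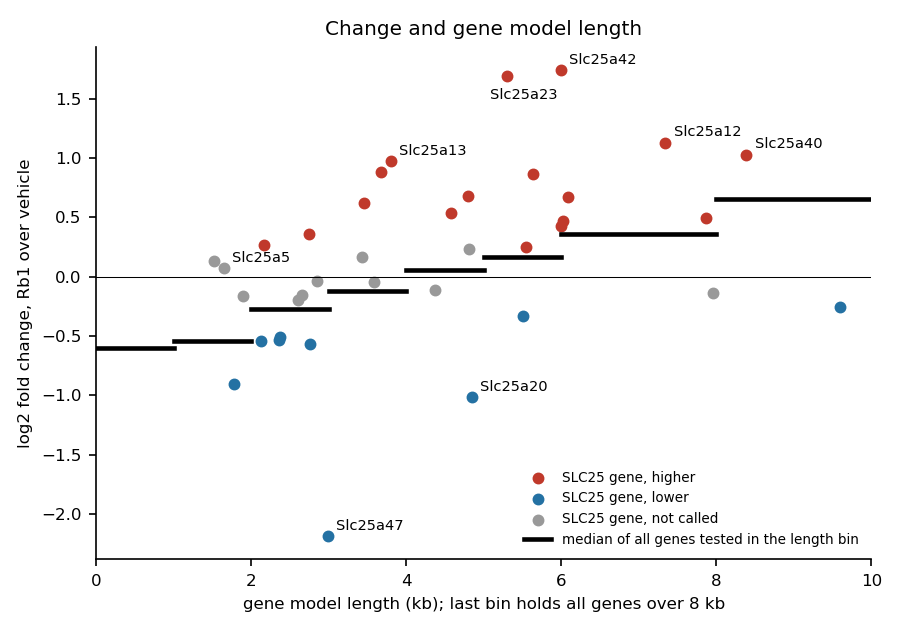
Log2 fold change (Rb1 over vehicle) of the tested SLC25 genes reported here against the length of its gene model in kb; black bars are the medians of all genes tested in the same length bin. The bars climb from -0.60 for models up to 1 kb to 0.65 for those over 8 kb; Slc25a42, Slc25a23 and Slc25a13 lie well above the bar of their bin, and Slc25a20 and Slc25a47 below it.

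Levels per gene length differed widely within the family. The ADP/ATP carrier gene Slc25a5 had the highest level, 427 ± 8.18 FPKM with Rb1 and 403 ± 62.6 FPKM with vehicle (SD, n = 2 each), and alone made up 34.9% and 35.4% of the family's summed FPKM with Rb1, against 35.1% and 31.4% with vehicle. Slc25a4 came next in both groups, with 107 ± 1.91 FPKM with Rb1 and 154 ± 24.1 FPKM with vehicle. The order behind it differed between groups. The phosphate carrier gene Slc25a3 had 79.4 ± 2.26 FPKM with Rb1 (rank 3) and 66.3 ± 2.51 FPKM with vehicle (rank 4). Slc25a39 had 73.8 ± 2.14 FPKM with Rb1 (rank 4) and 109 ± 7.25 FPKM with vehicle (rank 3). The means of these genes differed by more than their SD in both groups. At the other end, Slc25a21, Slc25a27 and Slc25a31 had no count in any library. A count of 0 allows up to 3 counts, which is at most 0.179 CPM per library and covers counting error only.

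**Figure D3:**
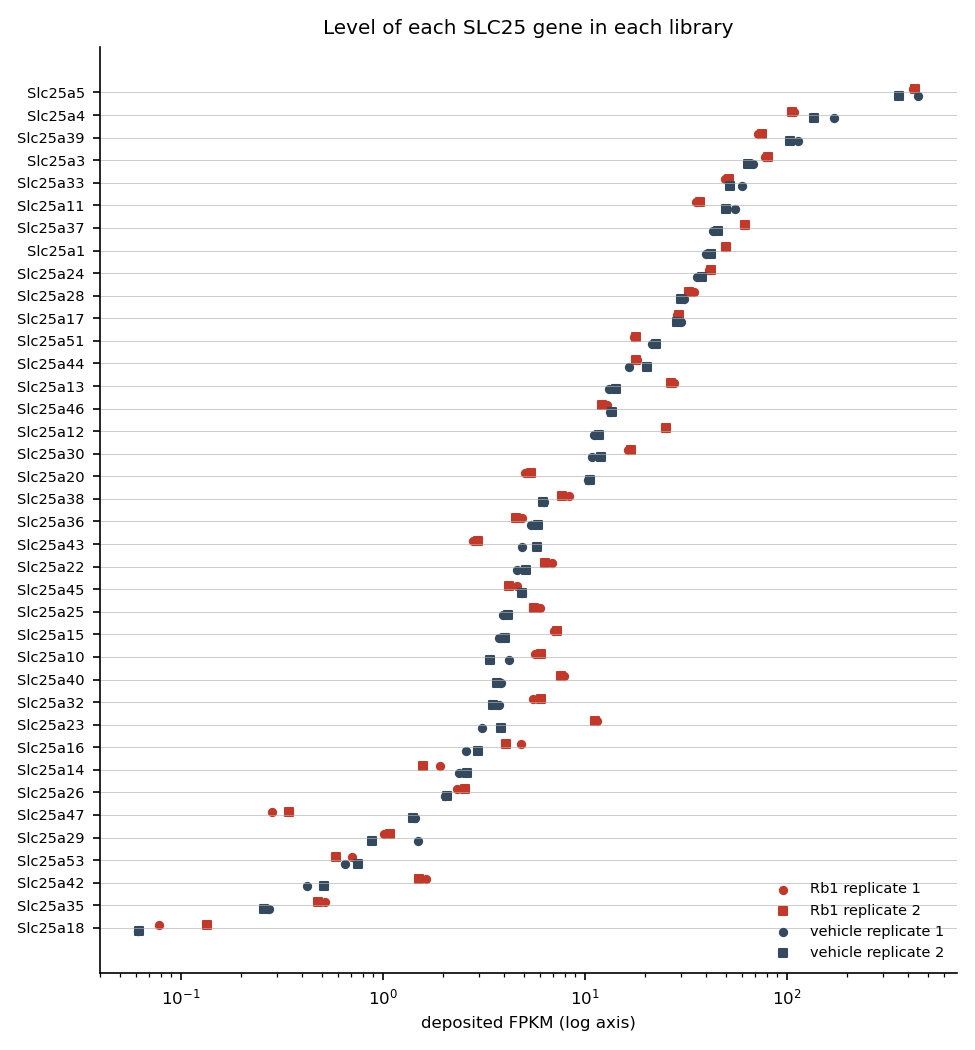
Deposited FPKM (log axis) of the SLC25 genes reported here that had a count in all 4 libraries, ordered by the vehicle mean; red points are the 2 Rb1 libraries and dark points the 2 vehicle libraries. Slc25a5 stands highest in all 4 libraries; in Slc25a23, Slc25a40 and Slc25a42 the red points lie to the right of the dark ones, and in Slc25a20 and Slc25a47 to the left.

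Carriers of adenine nucleotides and phosphate serve oxidative phosphorylation. Of 8 such genes 6 were tested, and 3 were higher, 1 lower and 2 not called. Over all genes tested 35.7% were called higher and 36.3% lower. Slc25a5 (ENSMUSG00000016319, chromosome X, 36795651 to 36798807, GRCm38) encodes the ADP/ATP carrier ANT2 of dividing cells. It had 693 and 713 CPM with Rb1, against 744 and 592 CPM with vehicle. The groups overlapped, because the vehicle libraries lay on either side of both Rb1 libraries, and the gene was not called (log2 fold change 0.07, SE 0.10, adjusted p = 0.533). It was called higher with the length trend removed (log2 fold change 0.53, adjusted p = 6.5e-06) and with library totals (0.32, adjusted p = 0.00381). Here and below, a fit with 1 library left out keeps 1 library in that group, so its p-value holds no spread within that group. Without vehicle replicate 1 the log2 fold change of Slc25a5 was 0.24. Its relative Slc25a4, which encodes the heart and muscle type ANT1, had 256 and 249.9 CPM with Rb1, against 408 and 324 CPM with vehicle. Both Rb1 values were below both vehicle values, and the gene fell (log2 fold change -0.53, SE 0.10, adjusted p = 4.95e-04). Slc25a4 made up 20.5% and 19.7% of the summed FPKM of this pair with Rb1, against 27.7% in each vehicle library. The third ADP/ATP carrier gene, Slc25a31, known for its role in the testis, was among those without a count. These 3 genes are close in sequence and have processed copies, so the assignment of reads among them is uncertain. The call of Slc25a4 ended with limma on log2(FPKM + 1) with no filter on low FPKM (adjusted p = 0.0588), and its log2 fold change was -0.25 with the length trend removed (adjusted p = 0.00792).

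The phosphate carrier gene Slc25a3, whose product brings in the phosphate for ATP synthesis, had 431.5 and 449.8 CPM with Rb1, against 382.5 and 359.6 CPM with vehicle, and rose (log2 fold change 0.25, SE 0.07, adjusted p = 0.0107). With the length trend removed the call ended (0.03, adjusted p = 0.647), as it did when either Rb1 library was left out (adjusted p = 0.0898 without replicate 1, 0.19 without replicate 2). The ATP-Mg/phosphate carriers, which exchange ATP-Mg for phosphate and are controlled by calcium, held one of the larger changes. Slc25a23 (ENSMUSG00000046329, chromosome 17, 57043711 to 57059863) had 60.7 and 59.5 CPM with Rb1, against 16.7 and 20.4 CPM with vehicle. The Rb1 libraries were close together and well above both vehicle libraries, a 3.24-fold higher level (log2 fold change 1.69, SE 0.11, adjusted p = 7.2e-08). Slc25a24 had 142 and 145 CPM with Rb1, against 125 and 131 CPM with vehicle, and was not called (log2 fold change 0.17, SE 0.07, adjusted p = 0.0515). It passed as higher with library totals (adjusted p = 3.1e-04) and with the length trend removed (adjusted p = 0.00135). Its log2 fold change was 0.13 without vehicle replicate 1 and 0.20 without vehicle replicate 2. Per length Slc25a24 was the more abundant of the pair in every library, and the share of Slc25a23 in their summed FPKM was 21.7% and 20.99% with Rb1, against 7.96% and 9.21% with vehicle. Slc25a25 rose less, to 47.1 and 44.0 CPM with Rb1, against 31.5 and 32.9 CPM with vehicle (log2 fold change 0.50, adjusted p = 3.31e-04), and this call ended with the length trend removed (0.06, adjusted p = 0.549). Slc25a41, the neighbour of Slc25a23 with 2056 bases between them on the same strand, had 1 count in each Rb1 library and 0 with vehicle.

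**Figure D4:**
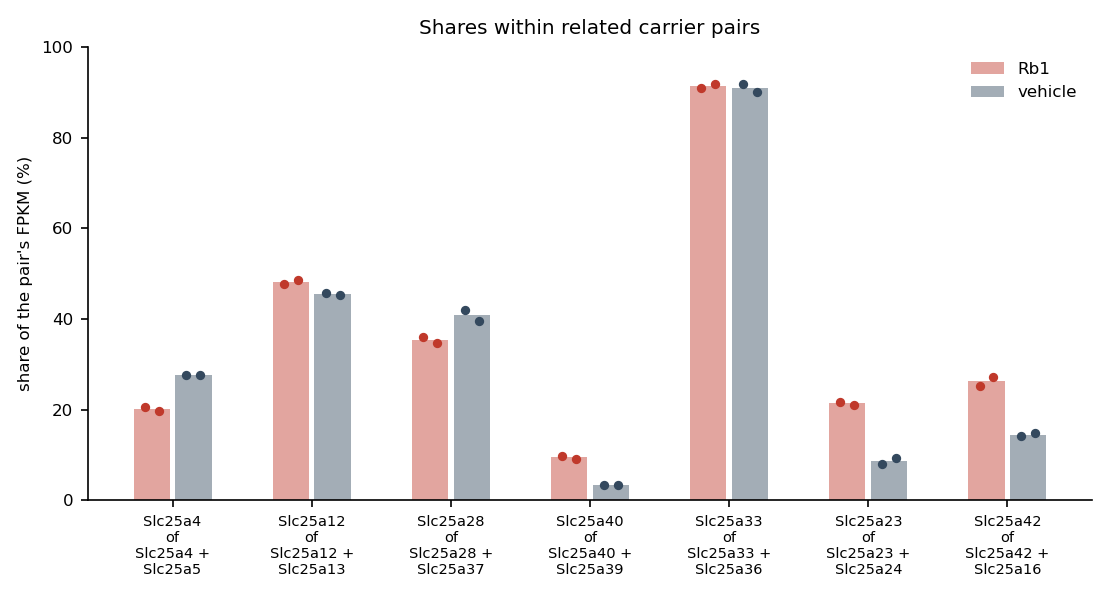
Share of the gene named first in the summed FPKM of 7 pairs of related carriers (percent); bars are group means and points the libraries, with Rb1 left of vehicle. The share of Slc25a40, Slc25a23 and Slc25a42 in their pairs was larger with Rb1 in both libraries, that of Slc25a4 was smaller, and that of Slc25a33 overlapped.

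In the aspartate and glutamate group, the aspartate/glutamate carriers encoded by Slc25a12 and Slc25a13 work in the malate-aspartate shuttle. This shuttle moves reducing equivalents from cytosolic NADH into the matrix. All 3 tested members of the group rose, the glutamate carrier gene Slc25a22 included, where 35.7% of all genes tested were called higher. Slc25a12 (ENSMUSG00000027010, chromosome 2, 71271063 to 71367749), which encodes the calcium-regulated aspartate/glutamate carrier aralar, had 186 and 185 CPM with Rb1, against 82.9 and 86.8 CPM with vehicle. The Rb1 libraries differed little from each other and lay 2.19-fold above the vehicle mean on the fitted scale (log2 fold change 1.13, SE 0.07, adjusted p = 7.9e-08). Slc25a13, which encodes the other isoform, citrin, had 106 and 101 CPM with Rb1, against 50.9 and 54.3 CPM with vehicle (log2 fold change 0.98, SE 0.08, adjusted p = 7.0e-07). The share of Slc25a12 in the summed FPKM of the pair was 47.7% and 48.6% with Rb1, against 45.7% and 45.3% with vehicle, so both genes stood near equal levels in every library. With the length trend removed the log2 fold changes were 0.72 for Slc25a12 and 1.01 for Slc25a13. The glutamate carrier gene Slc25a22 rose to 41.2 and 38.3 CPM with Rb1, against 28.2 and 31.0 CPM with vehicle (log2 fold change 0.43, SE 0.09, adjusted p = 0.00162), and was not called with the length trend removed (0.16, adjusted p = 0.106). The second glutamate carrier gene, Slc25a18, had 3 and 5 counts with Rb1 and 2 in each vehicle library, too few to be tested.

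Carriers of dicarboxylates and tricarboxylates went in different directions. The oxoglutarate carrier gene Slc25a11, whose product exchanges malate for oxoglutarate in the same shuttle, had 75.5 and 78.7 CPM with Rb1, against 119 and 106 CPM with vehicle, and fell (log2 fold change -0.54, SE 0.08, adjusted p = 1.0e-04). It was thus lower while the aspartate/glutamate carrier genes were higher; with the length trend removed its log2 fold change was -0.20 (adjusted p = 0.012). The citrate carrier gene Slc25a1 (ENSMUSG00000003528, chromosome 16, 17925223 to 17928219), whose product exports citrate for fatty acid and sterol synthesis, had 108 CPM in both Rb1 libraries, against 87.8 and 91.9 CPM with vehicle. Both Rb1 values were higher, by 1.2-fold (log2 fold change 0.27, SE 0.07, adjusted p = 0.0068), but leaving out either Rb1 library ended the call (adjusted p = 0.0902 without replicate 1, 0.0881 without replicate 2). Its log2 fold change was 0.59 with the length trend removed (adjusted p = 2.7e-06). The dicarboxylate carrier gene Slc25a10, which exchanges malate or succinate for phosphate, had 19.7 and 21.1 CPM with Rb1, against 14.7 and 11.8 CPM with vehicle (log2 fold change 0.62, SE 0.13, adjusted p = 0.00122). Here the spread within each group was wider, and the groups still did not overlap. Slc25a21, for oxoadipate, had no count.

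Among carriers of other amino acids and of acylcarnitine, 5 of 6 genes were tested, and 2 were higher, 1 lower and 2 not called. The shares over all genes tested were 35.7% higher and 36.3% lower. Slc25a20 (ENSMUSG00000032602, chromosome 9, 108662088 to 108684641) encodes the carnitine/acylcarnitine carrier, which brings fatty acids into the matrix for oxidation. It had 24.5 and 26.4 CPM with Rb1, against 50.9 and 51.8 CPM with vehicle. The Rb1 level was lower in both libraries, by 2.02-fold (log2 fold change -1.01, SE 0.09, adjusted p = 1.2e-06), and it fell by 1.14 on the log2 scale with the length trend removed. The ornithine carrier gene Slc25a15, which links the cytosolic and matrix parts of ornithine metabolism, rose to 39.8 and 41.0 CPM with Rb1, against 21.5 and 22.8 CPM with vehicle (log2 fold change 0.86, SE 0.09, adjusted p = 6.3e-06). Slc25a38, a glycine carrier gene needed for haem synthesis, had 23.1 and 21.3 CPM with Rb1, against 17.5 and 17.1 CPM with vehicle (log2 fold change 0.36, adjusted p = 0.0106), and its call was lost without Rb1 replicate 1 (adjusted p = 0.125) and with DESeq2 (adjusted p = 0.0505). Removing the length trend gave it a log2 fold change of 0.56 (adjusted p = 2.65e-04). Slc25a44, a carrier of branched-chain amino acids and the most abundant member of the group per length, had 64.6 and 64.0 CPM with Rb1, against 59.7 and 73.3 CPM with vehicle. The vehicle libraries lay on either side of both Rb1 libraries, and the gene was not called (log2 fold change -0.05, SE 0.10, adjusted p = 0.677). Without vehicle replicate 1 its log2 fold change was -0.20.

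Carriers of coenzymes and nucleotides supply the matrix enzymes with their cofactors. All 9 genes were tested, and 3 were higher, 3 lower and 3 not called. With library totals 5 were higher and 0 lower. The shares over all genes tested were 35.7% higher and 36.3% lower, and 45.3% and 27.1% with library totals. Slc25a42 (ENSMUSG00000002346, chromosome 8, 70184340 to 70212305), whose product exchanges coenzyme A for adenine nucleotides, had 9.83 and 9.12 CPM with Rb1, against 2.57 and 3.09 CPM with vehicle. It stood at a low level in all libraries, with 197 and 177 counts with Rb1, against 43 and 52 with vehicle. Its level was 3.34-fold higher in the Rb1 libraries (log2 fold change 1.74, SE 0.19, adjusted p = 5.8e-06). Slc25a16, a gene also linked to coenzyme A transport, rose to 23.3 and 19.6 CPM with Rb1, against 12.6 and 14.2 CPM with vehicle (log2 fold change 0.68, adjusted p = 5.67e-04). The share of Slc25a42 in the summed FPKM of these genes was 25.2% and 27.2% with Rb1, against 14.1% and 14.8% with vehicle. Slc25a32, which takes folate and FAD into the matrix, was higher too (log2 fold change 0.67, SE 0.10, adjusted p = 9.4e-05), and stood at 0.39 with the length trend removed (adjusted p = 0.00266).

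On the TMM scale the lower genes of this group described here changed by less. Slc25a51, the NAD+ carrier gene, had 96.6 and 98.8 CPM with Rb1, against 121 and 125 CPM with vehicle (log2 fold change -0.33, adjusted p = 0.00155). The pyrimidine nucleotide carrier gene Slc25a36 had 47.0 and 44.0 CPM with Rb1, against 52.4 and 56.3 CPM with vehicle (-0.26, adjusted p = 0.018). Neither Slc25a51 nor Slc25a36 was called with library totals (adjusted p = 0.411 for Slc25a51 and 0.924 for Slc25a36), and each lost its call without Rb1 replicate 1 (adjusted p = 0.0598 for Slc25a51 and 0.0831 for Slc25a36). Slc25a36 lost it without Rb1 replicate 2 as well. Over the 15 alternatives, the call of Slc25a36 was lost in 6 and that of Slc25a51 in 2. Both fell further with the length trend removed, to log2 fold changes of -0.54 for Slc25a51 (adjusted p = 2.0e-06) and -0.81 for Slc25a36 (adjusted p = 1.7e-07), the second farther from 0 than those of Slc25a16 (0.57) and Slc25a32 (0.39) in that setting. The other pyrimidine carrier gene, Slc25a33, had the highest level per length of the group, 93.8 and 97.4 CPM with Rb1, against 115 and 99.5 CPM with vehicle, and was not called (log2 fold change -0.17, SE 0.09, adjusted p = 0.101). Its direction turned with the length trend removed (0.23, adjusted p = 0.00464), and its log2 fold change was -0.26 without vehicle replicate 2. The peroxisomal carrier gene Slc25a17 had 81.2 and 83.0 CPM with Rb1, against 86.0 and 82.2 CPM with vehicle (log2 fold change -0.03, adjusted p = 0.704), and the S-adenosylmethionine carrier gene Slc25a26 was also not called (0.23, adjusted p = 0.148) but passed as higher with library totals (0.48, adjusted p = 0.00648). Noncoding genes annotated on the opposite strand overlap Slc25a33 and Slc25a36 and had up to 77 counts in a library, both of them higher with Rb1. No source used here states whether the counting used strand, so reads of such partners cannot be told apart with certainty, nor those of Slc25a11, Slc25a25 and Slc25a26 from the protein-coding genes Rnf167, Naif1 and Lrig1 that overlap them. Lrig1 had 168 and 187 counts with Rb1, against 172 and 186 with vehicle, near those of Slc25a26, which had 224 and 238 with Rb1, against 165 and 170 with vehicle.

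Iron enters the matrix through the mitoferrins, and a second pair of carriers takes in glutathione. The mitoferrin gene Slc25a37 (ENSMUSG00000034248, chromosome 14, 69241848 to 69285112), known for its role in red cell precursors, had 371 and 375 CPM with Rb1, against 262 and 277 CPM with vehicle. It rose 1.38-fold (log2 fold change 0.47, SE 0.07, adjusted p = 1.06e-04), which was 0.20 on the log2 scale with the length trend removed (adjusted p = 0.00629). Its relative Slc25a28 had 52.6 and 49.8 CPM with Rb1, against 47.5 and 45.7 CPM with vehicle, and was not called (log2 fold change 0.14, SE 0.08, adjusted p = 0.162), but passed as higher with library totals (0.38, adjusted p = 0.00151) and with the length trend removed (0.61, adjusted p = 5.4e-06). The glutathione carrier genes moved in opposite directions. Slc25a40 (ENSMUSG00000054099, chromosome 5, 8422850 to 8454797) had 66.3 and 63.8 CPM with Rb1, against 32.6 and 31.1 CPM with vehicle, a 2.04-fold higher level (log2 fold change 1.03, SE 0.08, adjusted p = 6.4e-07). Slc25a39 (ENSMUSG00000018677, chromosome 11, 102402985 to 102407946) had 199 and 208 CPM with Rb1, against 317 and 286 CPM with vehicle, a 1.48-fold lower level (log2 fold change -0.57, SE 0.08, adjusted p = 3.7e-05). Per length Slc25a39 remained the more abundant gene of this pair, and the share of Slc25a40 in their summed FPKM was 9.86% and 9.17% with Rb1, against 3.26% and 3.45% with vehicle. The gene models differ in length, 8386 bases for Slc25a40 and 2756 for Slc25a39, and with the length trend removed the changes kept their signs at 0.55 and -0.37 (adjusted p = 2.1e-05 and 6.0e-05).

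Of the carriers related to uncoupling proteins, Slc25a30 had 74.6 and 77.8 CPM with Rb1, against 50.05 and 55.0 CPM with vehicle, and rose (log2 fold change 0.54, SE 0.08, adjusted p = 1.25e-04). Slc25a14 had 4.54 and 3.76 CPM with Rb1, against 5.68 and 6.18 CPM with vehicle (log2 fold change -0.51, SE 0.19, adjusted p = 0.0317), and its call was lost in 7 of 15 alternatives. Its log2 fold change was -0.24 with the length trend removed (adjusted p = 0.291), and with library totals it was -0.27 (adjusted p = 0.239). The adjusted p was 0.236 without Rb1 replicate 2, 0.0703 when vehicle replicate 2 was dropped, and 0.125 with DESeq2. Slc25a27, known from brain, had no count. Members whose substrate is unsettled held the largest fall. Slc25a47 (ENSMUSG00000048856, chromosome 12, 108836046 to 108856815), known from liver, had 17 and 20 counts with Rb1, against 73 and 71 with vehicle, or 0.849 and 1.03 CPM with Rb1, against 4.37 and 4.22 CPM with vehicle. The groups were far apart at this low level, 4.55-fold lower in the Rb1 libraries (log2 fold change -2.18, SE 0.28, adjusted p = 2.7e-05). Its neighbour Slc25a29, a basic amino acid carrier gene on the opposite strand with 162 bases between the gene models, had 53 and 55 counts with Rb1, against 66 and 39 with vehicle, and was not called (log2 fold change -0.19, SE 0.29, adjusted p = 0.564).

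Slc25a43 was lower with Rb1 (4.99 and 5.26 CPM with Rb1, against 8.79 and 10.4 CPM with vehicle, log2 fold change -0.90, adjusted p = 4.45e-04), and stood at -0.49 with the length trend removed (adjusted p = 0.0209). Slc25a35 was higher at a low level, with 38 and 34 counts with Rb1, against 17 and 16 with vehicle (log2 fold change 0.89, SE 0.34, adjusted p = 0.0351). That call was lost with the replicate number as a block (adjusted p = 0.0514), without each library in turn (adjusted p 0.0844 to 0.178) and with DESeq2 (adjusted p = 0.16). Slc25a46, a carrier-like protein of the outer membrane tied to fission and the most abundant of the group per length, had 56.5 and 53.0 CPM with Rb1, against 58.8 and 59.7 CPM with vehicle, and was not called (log2 fold change -0.11, SE 0.08, adjusted p = 0.224). With the length trend removed it passed as lower (-0.17, adjusted p = 0.0493). Slc25a45 and Slc25a53 were not called either (adjusted p = 0.3 and 0.527), though Slc25a53 passed as lower with the length trend removed (-0.59, adjusted p = 0.0106). The remaining genes left out by the count filter had few reads. Slc25a34 had 0 and 3 counts with Rb1, against 5 and 21 with vehicle. Slc25a2, an ornithine carrier gene, had 14 and 0 counts with Rb1, against 0 and 3 with vehicle. Slc25a48 had 6 and 0 counts with Rb1, and Slc25a54 had 0 and 1, with none in the vehicle libraries for either.

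Other genes that build or work with the carriers were listed with earlier results of these data known. Over all genes tested 35.7% were called higher and 36.3% lower, or 45.3% and 27.1% with library totals. With the length trend removed 33.7% were higher and 36.4% lower. Of 5 carrier-fold proteins under other symbols 3 were tested. Ucp2, an uncoupling protein gene, had 743 and 717 CPM with Rb1, against 604 and 649 CPM with vehicle (log2 fold change 0.22, adjusted p = 0.0254), and Mtch1, a carrier-like outer membrane insertase gene, had 149 and 156 CPM with Rb1, against 268 and 235 CPM with vehicle (log2 fold change -0.72, adjusted p = 7.9e-06). With the length trend removed 0 of the 3 were higher and all 3 lower, Ucp2 included. Of 12 genes of the machinery that imports carriers, 7 were lower, 2 higher and 3 not called, whereas library totals gave 4 lower and 5 higher. The small TIM chaperone gene Timm8a1 had 39.2 and 40.5 CPM with Rb1, against 90.0 and 73.2 CPM with vehicle. Timm22, the channel of the carrier translocase, had 29.1 and 32.1 CPM with Rb1, against 64.9 and 56.8 CPM with vehicle (log2 fold change -0.99, SE 0.10, adjusted p = 2.7e-06). Both stood lower in each Rb1 library than in either vehicle library.

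Of 15 other transporters and channels of the mitochondrial membranes, 6 were higher and 5 lower, and 7 and 2 with library totals. The shares over all genes tested were 35.7% higher and 36.3% lower, and 45.3% and 27.1% with library totals. The outer membrane channel gene Vdac1 had 308 and 318 CPM with Rb1, against 999 and 982 CPM with vehicle (log2 fold change -1.66, SE 0.08, adjusted p = 7.5e-09), and the calcium uniporter gene Mcu had 22.3 and 22.9 CPM with Rb1, against 10.8 and 11.6 CPM with vehicle (1.02, SE 0.12, adjusted p = 1.0e-05). Of 19 enzymes that make or use the carried metabolites, 7 were higher and 6 lower (11 and 4 with library totals), with Shmt2, the matrix serine hydroxymethyltransferase, at a log2 fold change of 0.98 and Alas1, the start of haem synthesis, at -0.98 (adjusted p = 2.3e-07 and 3.5e-07). Except for the carrier-fold genes with the length trend removed, each of these lists held genes called in both directions on every scale named here.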

How the data were processed

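The authors deposited raw counts per gene for 2 Rb1 and 2 vehicle libraries, unpooled, and FPKM for the same genes. Each deposited FPKM equals the count per kb divided by a constant per library, which was 1.09 times the count total in both Rb1 libraries and 0.908 and 0.943 times it in the vehicle libraries. No source used here names the aligner, the counting program or strand use. Per the submitters' processing notes the build was GRCm39 (mm39), but 98.3% of the gene IDs shared with GENCODE M21 have identical GRCm38 coordinates there (44 of the 47 members), so coordinates are named GRCm38. Counts were tested with edgeR 4.0.16 (TMM, filterByExpr, robust quasi-likelihood, treatment as the only term, two-sided); p-values were adjusted over 13518 genes by the Benjamini-Hochberg method. The standard error is the log2 fold change divided by the square root of F. On simulated counts for this comparison (13200 genes) the fit called 84 of 98 genes changed 2-fold and 66 of 98 changed 1.5-fold. It also called 4 of 13004 unchanged genes. Few genes were changed in the simulation, whereas 72.0% of the genes tested here were called, so these shares need not hold for these data. Alternatives used DESeq2 1.42.0 and limma 3.58.1 on log2(FPKM + 1) or log2(FPKM + 0.1), for genes averaging at least 0.5 FPKM or with no such filter, other scalings and count filters, a lowess length trend (span 0.3) and each library left out.

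The labels enter the replicate number as the batch and name no shared day or culture, and a fit with that number as a block was an alternative only; across 13518 genes, the deviations of equal-numbered libraries from the mean of their group had a correlation of -0.05. Members, substrate groups and lists were chosen with earlier results of these data known. Given in full were members called with at least a 2-fold change and, per substrate group, the most abundant and the most changed called member; other members are named to account for them, except 1 that is counted but not reported here. Of other lists, up to 2 called genes with the largest change were named.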

Additional observations from a re-analysis of the deposited data

How the results depend on the processing

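Of the 27 carriers called, 16 kept their direction and their call in all 15 alternatives, 11 higher and 5 lower, among them the 6 that changed by at least 2-fold, and 11 lost the call in at least 1. None of the 27 turned its sign. Of the 11 not called, 9 passed in at least 1 alternative. These counts include the fits with 1 library left out, whose p-values hold no spread within the group that keeps 1 library. With library totals 6 carriers were lower in place of 10, and the summed level was 1.26 times that of vehicle in place of 1.07. Slc25a17 was then called higher (log2 fold change 0.21, adjusted p = 0.0454), and Slc25a33 was called higher with the length trend removed (0.23) and with the replicate block as well (0.23). The causes were not tested beyond these constructions. With the replicate block 26 carriers were called in place of 27, and the block changed no call of a carrier other than that of Slc25a35. Leaving out 1 library gave a median log2 fold change of the tested carriers between 0.10 and 0.21, and a ratio of the summed level between 1.03 and 1.11. The log2 fold change of Slc25a42 was between 0.81 and 1.99 over the alternatives, lowest on log2(FPKM + 1), which shrinks changes of low genes. Counts of Slc25a47, Slc25a35 and Slc25a42 limit the precision of their values.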
